A study of Mus musculus with 8 samples.

Results

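The transcripts described here are 41 genes of tumor-associated macrophages and monocytes, chosen by name to cover cell identity, Fc receptors, uptake of dead cells and microbes, lysosomes, lipid handling and polarization. A gene was represented by the probe set that lists its symbol alone and, where a gene had several, by the one with the highest mean over all tumors. This gave 40 genes out of 19937 named genes on the array, and Slc11a1 was not analysed here. The study profiled 8 tumors of 4T1, a single mammary carcinoma cell line of mouse, in BALB/c mice. The cells were placed in the fourth mammary gland, which had received 20 Gy of local X-rays beforehand for 4 tumors (preirradiated) and no irradiation for the other 4 (nonirradiated), and all tumors grew for 18 days. The design asks how a tumor that arises in an irradiated tissue bed differs from one in an untreated bed. The labels do not give the age of the mice or tie the tumors to individual animals, so the p-values measure the spread between these tumors only.

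Macrophages enter tumors as blood monocytes or derive from cells resident in the tissue, and growth factors from the tumor keep them alive. They take up antibody-coated particles through Fc receptors, engulf dying cells through receptors for exposed membrane lipids, and break down what they ingest in lysosomes. The cholesterol this releases is exported or stored. In experimental mammary tumors such cells are known for supporting vessel growth, invasion and immune suppression, and the arginine enzymes Arg1 and Nos2 are classic marks of opposed activation states.

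Most of these genes were slightly lower in preirradiated tumors, and none passed correction for multiple testing. Of the 40 genes, 33 had a lower mean in preirradiated tumors (82.5%), where 52.6% of all named genes did. The median difference, preirradiated minus nonirradiated on the log2 scale of the array signal, was -0.11 for the 40 genes and -0.0038 for all named genes. The identity genes, the Fc receptors with the adaptor Tyrobp, and most uptake receptors were lower, while the lipid genes lay near 0 and 3 of 4 polarization genes were higher. With limma, 0 of the 40 passed a Benjamini-Hochberg adjusted p of 0.05 over 34738 probe sets, where 0% of all probe sets passed, and the lowest among the 40 was 0.789. Before adjustment, 2015 probe sets (5.8%) had a p under 0.05. So did 9 of the 40 genes (22.5%), all of them lower, where 3.27% of all named genes were lower at that limit and 2.39% were higher. The filter in the study's design joins an unadjusted p up to 0.05 to a log2 change of 0.4 or more, and 0 of the 40 passed it, against 0.487% of all named genes. Genes of one cell type tend to move together, so the 40 are not independent of each other. Whole tumor tissue was measured, so fewer macrophages, less RNA per macrophage and a changed amount of RNA from other cells cannot be told apart.

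**Figure D1:**
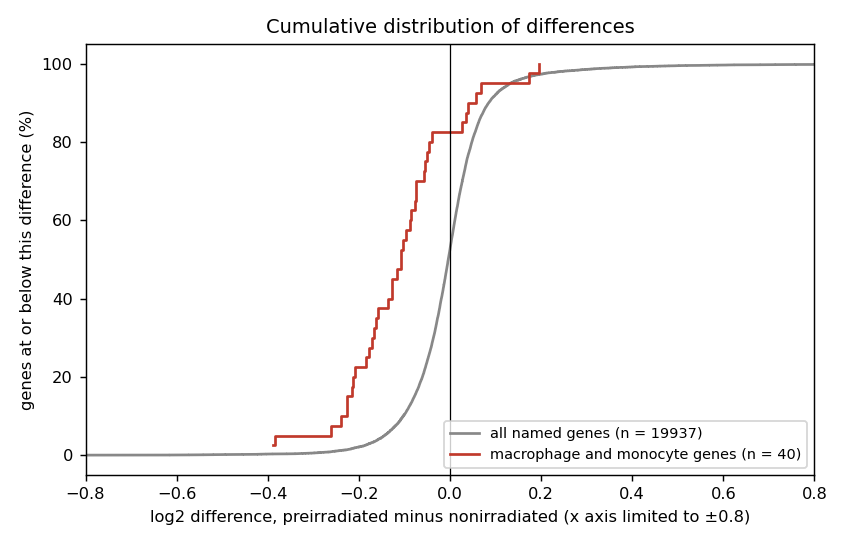
Cumulative percentage of genes (vertical axis) at or below each log2 difference, preirradiated minus nonirradiated (horizontal axis), for the 40 macrophage and monocyte genes (red) and all 19937 named genes (grey). The red line lies to the left of the grey one over most of its length, with medians of -0.11 and -0.0038, and meets it again among the highest differences.

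Before single genes are described, 2 tumors must be named. Preirradiated tumors 1 and 3 held much skeletal muscle RNA. The mean level of 10 muscle genes was 9.46 and 10.84 there, against 6.26 and 6.44 in preirradiated tumors 2 and 4 and 6.18 to 6.52 in nonirradiated tumors. Preirradiated tumor 1 was also highest in 6 adipocyte genes, at 8.19, where the nonirradiated tumors ran from 5.80 to 6.44. Without both tumors, 36 of the 40 macrophage genes were lower in preirradiated tumors, with a median of -0.12, where 48.8% of all named genes were lower, with a median of 0.0020. In that setting 6 of the 40 had an unadjusted p under 0.05, as did 4.01% of all probe sets. Of these, Cd68, Axl and Maf were under 0.05 in the fit of all tumors too, and Arg1, Lgals3 and Fabp5 were not. Spi1, Tyrobp, Fcgr3, Cd14, Clec7a and Clec4n were under 0.05 in the fit of all tumors but not in this one. The carcinoma markers Krt8 and Cdh1, a keratin and the cadherin of epithelial cells, were at 12.53 ± 0.05 and 9.61 ± 0.18 in nonirradiated tumors (SD, n = 4), and at 12.60 ± 0.03 and 9.90 ± 0.26 in preirradiated tumors. Both groups thus held epithelial RNA, which these markers alone do not assign to the carcinoma cells.

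Promoter sequence was used to show what the genes share outside the array values. PU.1, the factor encoded by Spi1, is required to form macrophages and binds purine-rich sites built on the letters GAGGAA. Promoters were available from RefSeq for 27 of the 40 genes. Those not found were Adgre1, Cd14, Msr1, Tyrobp, Arg1, Nos2, Maf, Spi1, Ctsb, Fabp5, Abcg1, Clec4n and Sirpa. The 250 bases before the start of the gene were searched on both strands. GAGGAA, or its reverse complement TTCCTC, was found in 13 of 27 genes (48.1%) and in 25.9% of 27025 genes with a promoter in the same table. The longer form GAGGAAG, which contains the first motif, was found in 8 of 27 genes (29.6%) and in 12.0% of all. The AP-1 motif TGAGTCA was found in Cd68 and Cd84 (7.41% of the 27, against 5.16% of all). The E-box TCACGTG, which lysosomal genes often carry, was found in Ctsd (3.7% against 3.58%). A match is a stretch of letters and not a measured binding site.

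The promoters of the 4 Fc receptors and of 3 further genes with an unadjusted p under 0.05 are printed to show where these letters lie, and the 3 were taken from genes that hold a match. Each runs in the direction of the gene and ends at the base before its start, with GAGGAA or TTCCTC in capitals. In build GRCm38.p6 the windows are Cd68 at chr11:69666171-69666420 on the minus strand, Axl at chr7:25788734-25788983 on the minus strand, Clec7a at chr6:129472780-129473029 on the minus strand, Fcgr1 at chr3:96293970-96294219 on the minus strand, Fcgr3 at chr1:171059395-171059644 on the minus strand, Fcgr4 at chr1:171018676-171018925 on the plus strand and Fcgr2b at chr1:170976072-170976321 on the minus strand.
Cd68: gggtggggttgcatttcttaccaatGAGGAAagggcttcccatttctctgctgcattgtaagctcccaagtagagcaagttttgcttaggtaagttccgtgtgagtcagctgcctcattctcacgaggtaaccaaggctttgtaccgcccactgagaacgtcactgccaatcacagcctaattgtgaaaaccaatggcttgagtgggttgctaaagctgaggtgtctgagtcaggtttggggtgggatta
Axl: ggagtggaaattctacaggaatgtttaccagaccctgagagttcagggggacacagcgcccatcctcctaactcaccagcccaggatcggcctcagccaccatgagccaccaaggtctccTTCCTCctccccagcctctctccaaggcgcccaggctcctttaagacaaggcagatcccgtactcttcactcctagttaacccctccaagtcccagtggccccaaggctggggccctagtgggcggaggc
Clec7a: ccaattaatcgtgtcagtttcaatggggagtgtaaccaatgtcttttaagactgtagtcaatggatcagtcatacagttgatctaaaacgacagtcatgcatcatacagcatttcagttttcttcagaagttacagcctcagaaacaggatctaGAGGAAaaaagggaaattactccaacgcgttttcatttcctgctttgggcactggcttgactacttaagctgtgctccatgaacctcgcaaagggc
Fcgr1: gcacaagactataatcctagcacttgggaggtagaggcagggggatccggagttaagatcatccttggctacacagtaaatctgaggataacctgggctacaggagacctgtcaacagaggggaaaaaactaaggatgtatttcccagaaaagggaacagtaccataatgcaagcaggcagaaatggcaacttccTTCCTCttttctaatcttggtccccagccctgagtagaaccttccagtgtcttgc
Fcgr3: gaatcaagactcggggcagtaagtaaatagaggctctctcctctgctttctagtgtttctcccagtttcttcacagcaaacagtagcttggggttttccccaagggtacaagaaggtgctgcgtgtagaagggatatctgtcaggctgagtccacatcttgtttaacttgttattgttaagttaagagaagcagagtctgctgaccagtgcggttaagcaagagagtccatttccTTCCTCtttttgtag
Fcgr4: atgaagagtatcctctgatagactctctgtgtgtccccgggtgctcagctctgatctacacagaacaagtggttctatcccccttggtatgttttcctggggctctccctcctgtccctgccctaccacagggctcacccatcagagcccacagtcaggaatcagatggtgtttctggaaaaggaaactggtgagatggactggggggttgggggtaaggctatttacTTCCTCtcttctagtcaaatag
Fcgr2b: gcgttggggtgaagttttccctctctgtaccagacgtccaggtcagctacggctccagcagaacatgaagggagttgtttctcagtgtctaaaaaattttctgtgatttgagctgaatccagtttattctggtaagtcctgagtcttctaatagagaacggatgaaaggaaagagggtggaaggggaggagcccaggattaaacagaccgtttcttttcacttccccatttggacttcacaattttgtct
In the 3 activating Fc receptor genes the match lay close to the start, beginning 55 bases before it in Fcgr1, 15 in Fcgr3 and 22 in Fcgr4, each time as TTCCTC. The inhibitory receptor Fcgr2b had 0 matches in this window. In Cd68, Axl and Clec7a the match began 225, 130 and 96 bases before the start. Clec7a and Fcgr3 have a further start site in the table, and the window of the first is shown.

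The 12 identity genes were all lower in preirradiated tumors, with a median difference of -0.16 and a range from -0.26 to -0.09. Spi1 encodes the transcription factor PU.1. Its levels were 10.30, 10.15, 10.14 and 10.12 in nonirradiated tumors 1 to 4 and 9.90, 10.04, 10.02 and 10.09 in preirradiated tumors 1 to 4. All preirradiated tumors lay below all nonirradiated ones, by a narrow gap. The difference was -0.17 (SE 0.057, limma adjusted p = 0.808), or 1.12-fold lower. Cd68, a glycoprotein of macrophage lysosomes, was 10.92, 11.00, 10.98 and 11.04 in nonirradiated and 10.92, 10.90, 10.83 and 10.61 in preirradiated tumors. Its groups also did not overlap, but nonirradiated tumor 1 at 10.924 and preirradiated tumor 1 at 10.921 were nearly equal. Cd68 differed by -0.17 (SE 0.070, limma adjusted p = 0.84), and by -0.10 without preirradiated tumor 4, which was the lowest. Non-overlapping groups with lower values after preirradiation were seen for 3 of the 40 genes (7.5%), Spi1, Cd68 and Axl, and for 1.95% of all named genes. Such groups with higher values were seen for 0 of the 40 and for 1.7% of all.

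Maf, a transcription factor of mature macrophages, was 10.07, 10.18, 9.87 and 10.19 in nonirradiated and 10.07, 9.69, 9.87 and 9.64 in preirradiated tumors. Preirradiated tumors 2 and 4 were low, tumor 1 lay within the nonirradiated range and tumor 3 at its lower edge. Maf differed by -0.26 (SE 0.108, limma adjusted p = 0.847) and by -0.41 without preirradiated tumors 1 and 3, where it passed the study's filter. Cd14, the coreceptor for bacterial lipopolysaccharide, was 8.79, 8.80, 9.14 and 9.06 against 8.74, 8.64, 8.78 and 8.80. Nonirradiated tumors 3 and 4 were high, and the others overlapped with the preirradiated tumors. Cd14 differed by -0.21 (SE 0.087, limma adjusted p = 0.85).

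Mpeg1, a pore-forming protein of phagocytes, was 10.90, 10.68, 10.37 and 10.55 in nonirradiated and 10.20, 10.61, 10.44 and 10.30 in preirradiated tumors. The groups overlapped, and the difference was -0.24 (SE 0.125, limma adjusted p = 0.876), or -0.15 without nonirradiated tumor 1, the highest. Aif1, a calcium-binding protein of macrophages and microglia, was 8.01, 7.73, 7.51 and 7.51 against 7.14, 7.36, 7.58 and 7.78. Its spread within groups was among the widest of the 40 genes, and the difference of -0.23 became -0.12 without nonirradiated tumor 1, the highest, or without preirradiated tumor 1, the lowest.

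The other identity genes had intervals that include 0. Adgre1, the surface receptor used as the standard marker of mouse macrophages, was 9.19 ± 0.10 in preirradiated and 9.35 ± 0.28 in nonirradiated tumors (SD, n = 4). Its difference of -0.16 had a 95% interval from -0.46 to 0.14 and ran from -0.28 to -0.06 when nonirradiated tumor 3 or 1 was left out. Lyz2, the lysozyme of myeloid cells, differed by -0.09, Laptm5, a lysosomal membrane protein of blood cells, by -0.11, and Sirpa, the inhibitory receptor that restrains engulfment, by -0.09. Ms4a7 and Cd84, surface proteins of macrophages and other leukocytes, differed by -0.12 and -0.10. Cd84 was at 0.0038 without nonirradiated tumor 1.

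**Figure D2:**
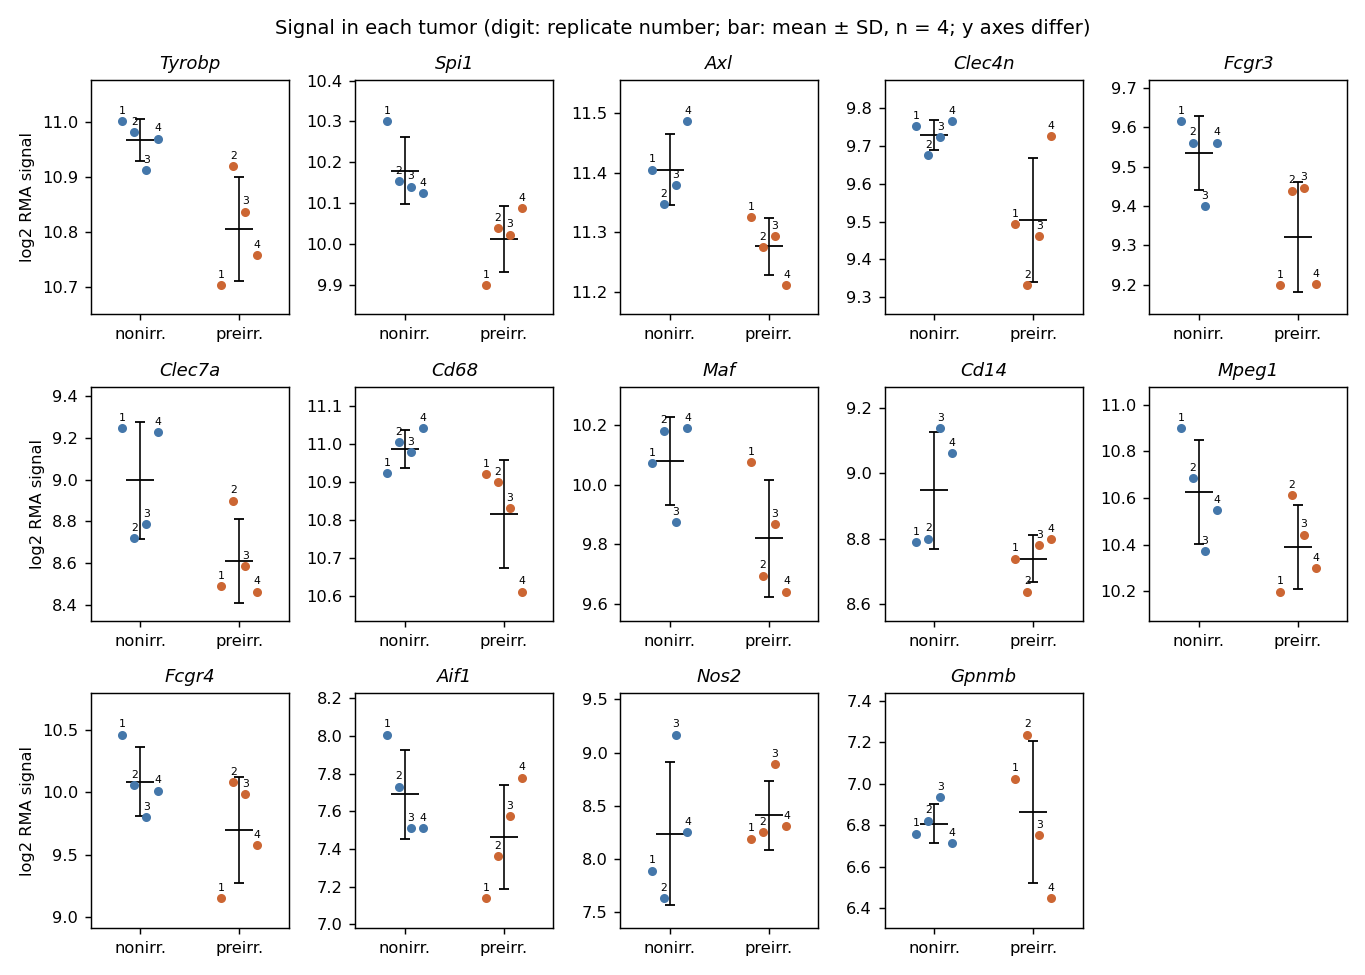
Log2 RMA signal (vertical axis, a scale of its own in each panel) in each tumor for 14 genes, with nonirradiated tumors in blue and preirradiated tumors in orange. Digits are replicate numbers, and bars are the mean ± SD of 4 tumors. The groups separate for Spi1, Axl and Cd68 and overlap in the other 11 panels, as for Nos2, where tumor 3 of each group is high.

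All 5 genes of the next role, the Fc receptors and the adaptor Tyrobp, were lower, with a median difference of -0.18. Where means over this role are given, the name Fc receptor genes includes Tyrobp. Tyrobp, the membrane adaptor that carries an activation motif for Trem2 and other receptors, was 11.00, 10.98, 10.91 and 10.97 in nonirradiated and 10.70, 10.92, 10.84 and 10.76 in preirradiated tumors. The nonirradiated tumors lay close together, and preirradiated tumor 2 just reached their range. Tyrobp differed by -0.16 (SE 0.052, limma adjusted p = 0.789), or 1.12-fold lower, and had the smallest p of the 40 genes. Fcgr3, an activating low-affinity receptor for immunoglobulin G, was 9.62, 9.56, 9.40 and 9.56 against 9.20, 9.44, 9.45 and 9.20. Preirradiated tumors 1 and 4 were low, and tumors 2 and 3 overlapped with nonirradiated tumor 3. The difference was -0.21 (SE 0.078, limma adjusted p = 0.812). Fcgr4, an activating receptor of intermediate affinity, had one of the 2 largest differences, -0.39 (SE 0.219), but also a wide spread. Its levels were 10.46, 10.06, 9.80 and 10.01 in nonirradiated and 9.15, 10.08, 9.98 and 9.58 in preirradiated tumors. Preirradiated tumor 1 was far below the others, the groups overlapped, and the limma adjusted p was 0.888. Without that tumor the difference was -0.20, and without preirradiated tumor 2 it was -0.51 and passed the study's filter.

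Fcgr1, the high-affinity receptor, was low in the same tumor, at 9.23, while the other preirradiated tumors lay between 9.69 and 9.75 and the nonirradiated tumors between 9.57 and 10.06. Its difference was -0.18, or -0.065 without preirradiated tumor 1 and -0.09 without nonirradiated tumor 1. Fcgr2b, the receptor that inhibits activation, differed by -0.11, with a 95% interval from -0.28 to 0.06. Fcgr2b and Fcgr3 are closely related genes, and whether their probes detect each other's transcripts was not tested. Preirradiated tumor 1 also had the lowest mean level of 10 T and NK cell genes, 5.64, where preirradiated tumors 2 to 4 had 5.83 to 6.13 and nonirradiated tumors 6.02 to 6.34. The part of those cells in the Fc receptor values was not tested.

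Among the 7 receptors for clearance and pattern recognition 6 were lower, with a median difference of -0.13. Axl, a receptor kinase that binds dying cells through a bridging ligand, was 11.40, 11.35, 11.38 and 11.49 in nonirradiated and 11.33, 11.27, 11.29 and 11.21 in preirradiated tumors. All preirradiated tumors lay below all nonirradiated ones, and the spread within each group was small. Axl differed by -0.13 (SE 0.044, limma adjusted p = 0.808), or 1.09-fold lower. Mertk, its relative with the same role, differed by -0.14, with a 95% interval from -0.36 to 0.08, and by -0.05 without nonirradiated tumor 4. Clec7a, a lectin that binds fungal glucans, was 9.25, 8.72, 8.79 and 9.23 in nonirradiated and 8.49, 8.90, 8.58 and 8.46 in preirradiated tumors. Nonirradiated tumors 1 and 4 were high, and preirradiated tumor 2 lay among the nonirradiated values. The difference of -0.39 (SE 0.151, limma adjusted p = 0.828), or 1.31-fold lower, was the largest of the 40 and just missed the change limit of the study's filter. It passed that filter with each array centred on its median, or without nonirradiated tumor 2, nonirradiated tumor 3 or preirradiated tumor 2.

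Clec4n, a related lectin that binds fungal mannans, was 9.75, 9.68, 9.72 and 9.77 against 9.49, 9.33, 9.46 and 9.73. The nonirradiated tumors agreed closely, and 3 of 4 preirradiated tumors lay below them, with tumor 4 inside their range. Clec4n differed by -0.23 (SE 0.078, limma adjusted p = 0.808). Msr1, a scavenger receptor for modified lipoproteins, differed by -0.10. Trem2, a lipid receptor that signals through Tyrobp, showed little difference, -0.05, with a 95% interval from -0.20 to 0.10. Marco, a scavenger receptor for bacteria, stayed between 5.26 and 5.41 in all 8 tumors, not far above the expression limit of 4.0.

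**Figure D3:**
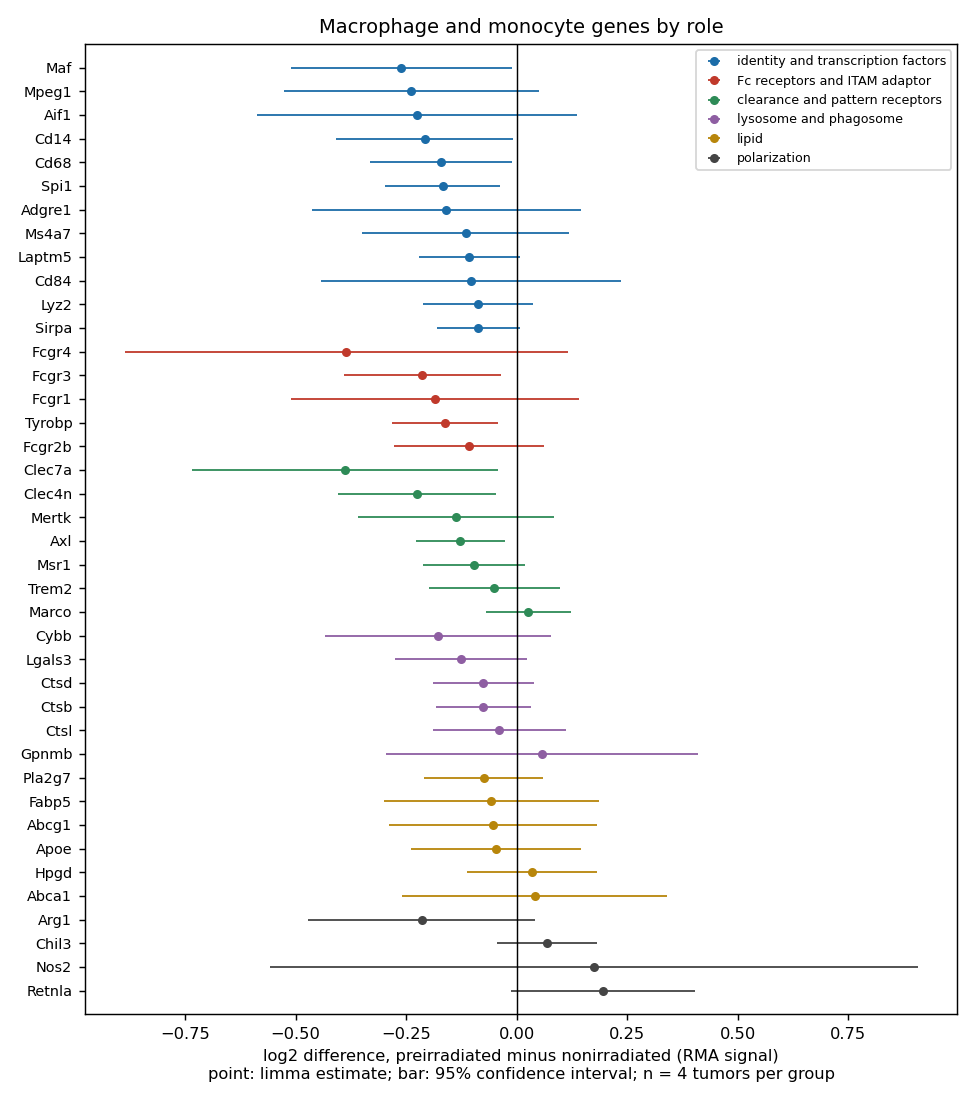
Log2 difference, preirradiated minus nonirradiated (horizontal axis), of the 40 genes, colored and ordered by role. Points are limma estimates and bars their 95% confidence intervals from 4 tumors per group. In 9 genes the interval lies wholly below 0, and the intervals of the other 31 include 0.

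Of the 6 lysosome and phagosome genes 5 were lower, with a median difference of -0.08, and 0 had an unadjusted p under 0.05. The proteases Ctsb and Ctsd both differed by -0.08, with 95% intervals from -0.18 to 0.03 and from -0.19 to 0.04, and Ctsl by -0.04. Lgals3, a galectin that marks damaged lysosomes, differed by -0.13. Cybb, the catalytic subunit of the phagocyte oxidase, was 11.03 ± 0.17 in preirradiated and 11.21 ± 0.19 in nonirradiated tumors (SD, n = 4) and differed by -0.18, or by -0.09 without nonirradiated tumor 1. Gpnmb, a glycoprotein of lipid-laden macrophages, was 6.76, 6.82, 6.93 and 6.72 in nonirradiated and 7.03, 7.24, 6.75 and 6.45 in preirradiated tumors. The nonirradiated tumors were alike, and the preirradiated ones lay on both sides of them. The difference was 0.06 (SE 0.154), with the opposite sign, -0.066, without preirradiated tumor 2.

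The 6 lipid genes ranged from -0.07 to 0.04, 4 of them lower, with a median of -0.05. Without preirradiated tumors 1 and 3, 6 of the 6 were lower and the median was -0.08. Apoe, the apolipoprotein that carries cholesterol out of macrophages, differed by -0.05, with a 95% interval from -0.24 to 0.14. The cholesterol exporters Abca1 and Abcg1 differed by 0.04 and -0.05. Abca1 was highest in preirradiated tumor 1, at 9.64, and lowest in preirradiated tumor 4, at 8.98, and without preirradiated tumors 1 and 3 its difference was -0.16. Fabp5, a fatty acid carrier, was also highest in preirradiated tumor 1, at 9.18. Its other probe set differed by -0.07 and this one by -0.06. Without preirradiated tumor 1 its difference was -0.16, and without preirradiated tumors 1 and 3 it was -0.21, both at an unadjusted p under 0.05. Preirradiated tumor 1 was also highest in adipocyte genes, and the part of fat cells in both values was not tested. Pla2g7, which inactivates platelet-activating factor, differed by -0.07, and Hpgd, which degrades prostaglandins, by 0.03 at levels of 5.04 to 5.28.

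The 4 polarization genes did not share a direction. Arg1, the arginase of alternatively activated macrophages, was 9.84 ± 0.17 in preirradiated and 10.06 ± 0.18 in nonirradiated tumors (SD, n = 4), a difference of -0.22 (limma adjusted p = 0.874). Nos2, the inducible nitric oxide synthase of inflammatory macrophages, was 7.89, 7.63, 9.17 and 8.26 in nonirradiated and 8.19, 8.25, 8.89 and 8.31 in preirradiated tumors. Tumor 3 of each group was high, and Nos2 had the widest spread within groups of the 40 genes. Its difference of 0.17 (SE 0.319) had a 95% interval from -0.56 to 0.91 and ran from -0.028 without nonirradiated tumor 2 to 0.48 without nonirradiated tumor 3, where it passed the study's filter. The same tumors had the highest mean level of 13 neutrophil genes, 7.52 in nonirradiated and 7.25 in preirradiated tumor 3, against 6.73 to 7.05 in the other 6. Arg1 was highest there too, at 10.31 and 10.08. The part of neutrophils in these values was not tested. Retnla and Chil3, secreted proteins of alternatively activated macrophages, had low signals of 4.88 to 5.37 and 4.57 to 4.80. They differed by 0.20 and 0.07, with 95% intervals from -0.01 to 0.40 and from -0.04 to 0.18.

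The values of the 40 genes varied from tumor to tumor as well as between the groups. Preirradiated tumor 4 had the lowest value of the 8 tumors in 18 genes, and preirradiated tumor 1 in 9. Nonirradiated tumors 1 and 4 had the highest value in 14 and 12 genes. Averaged over the 40 genes, the deviation from each gene's own mean was 0.10, 0.03, 0.00017 and 0.09 in nonirradiated tumors 1 to 4 and -0.06, -0.03, -0.0030 and -0.13 in preirradiated tumors 1 to 4. In nonirradiated tumor 3 the polarization genes Nos2 and Arg1 were high, at 9.17 and 10.31, while Retnla and Chil3, at 4.93 and 4.57, were not. The mean near 0 of this tumor joined a polarization mean of 0.24 to low identity and Fc receptor genes, at -0.06 and -0.05. In both of these roles it lay below preirradiated tumor 3, at -0.03 and 0.02, so the groups overlapped. Preirradiated tumor 1 was lowest for the Fc receptor genes, at -0.32, and preirradiated tumor 4 for the lysosome and lipid genes, at -0.15 and -0.18. The lipid genes of preirradiated tumor 1 stood at 0.11, as did those of nonirradiated tumor 4.

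**Figure D4:**
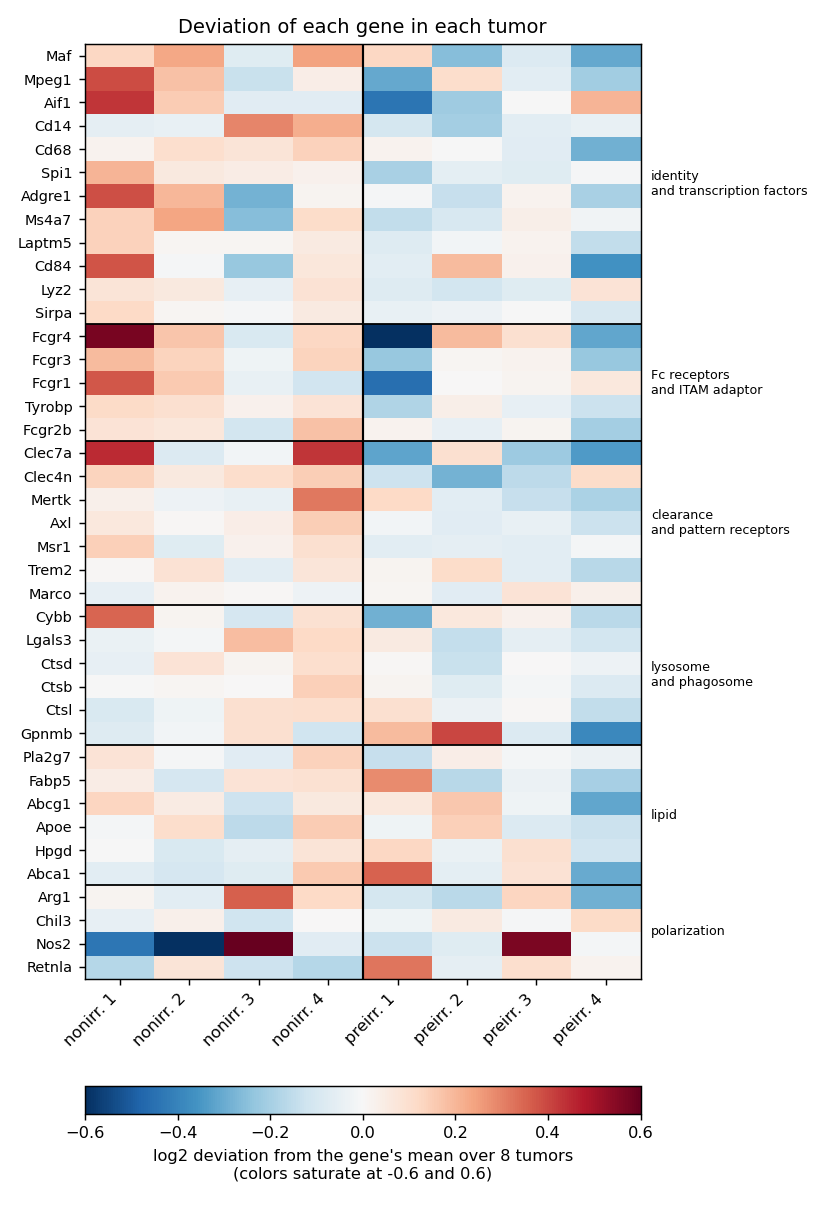
Log2 deviation of each gene (rows, grouped by role) from its own mean over the 8 tumors (columns), with red above and blue below that mean. The preirradiated columns are mostly blue in the identity genes, the Fc receptor genes are bluest in preirradiated tumor 1, and preirradiated tumor 4 is lowest in 18 of the 40 rows, while Nos2 is red in tumor 3 of both groups.

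Other genes of the same functions were taken from lists beside the 40. Of 25 further macrophage and monocyte genes 22 were measured and 21 of these were lower, with a median of -0.12, and 4 were lower at an unadjusted p under 0.05. Itgam, the integrin chain shared by macrophages, monocytes and neutrophils, was 10.07 ± 0.05 against 10.27 ± 0.05, a difference of -0.20 (SE 0.041, limma adjusted p = 0.62). The complement chain C1qc and the leukocyte phosphatase Ptprc differed by -0.18 and -0.19. Of 15 genes of the phagocyte oxidase and of signalling below activating receptors 13 were measured and 11 were lower, 3 of them at an unadjusted p under 0.05, with a median of -0.12. These 3 were Rac2 (-0.26), a GTPase that the oxidase needs, Cyba (-0.21), the partner of Cybb in the membrane, and Lcp2 (-0.26), a signalling adaptor of blood cells. Without preirradiated tumors 1 and 3, 9 of the 13 were lower and the median was -0.07.

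Of 24 further lysosome genes 21 were measured and 17 were lower, with a median of -0.10 and 2 at an unadjusted p under 0.05. They were the hexosaminidase chain Hexa (-0.15) and the protease Ctsz (-0.10), and next came the sialidase Neu1 (-0.11). Ctsk, the collagen-degrading protease of osteoclasts and fibroblasts, was 8.15 ± 0.35 in preirradiated against 7.79 ± 0.15 in nonirradiated tumors (SD, n = 4), named here after its value was seen. The list of 20 further lipid genes was divided, with 7 of 16 measured genes lower and a median of 0.01, and with 11 of 16 lower and a median of -0.02 without preirradiated tumors 1 and 3. Its 3 genes at an unadjusted p under 0.05 were lower: the phospholipid transfer protein Pltp (-0.28, SE 0.072, limma adjusted p = 0.674), the mitochondrial thiolase Acat1 (-0.14) and Nr1h3 (-0.12), a sterol-sensing nuclear receptor. Of all these genes 0 passed the limma adjusted threshold.

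Markers of other cells lay in both directions beside the macrophage genes. Fibroblast markers were higher in 9 of 10 genes (median 0.35), and their mean level was 9.55 to 9.89 in preirradiated and 9.25 to 9.43 in nonirradiated tumors. Col3a1, a chain of fibrillar collagen, differed by 0.61 and Col1a2 by 0.54. Carcinoma markers were higher in 8 of 8 genes (median 0.20), at 9.93 to 10.55 against 9.83 to 10.04, led by Krt7 (0.39). Preirradiated tumor 2 alone was at 10.55, and without it the median was 0.07. Endothelial markers were higher in 7 of 7 (median 0.13), at 8.44 to 8.74 against 8.31 to 8.52, adipocyte markers in 6 of 6 (median 0.52) and muscle markers in 10 of 10 (median 1.94). Much of the rise in muscle, adipocyte and fibroblast markers rested on preirradiated tumors 1 and 3. Without them the medians were -0.01 for muscle (4 of 10 higher), 0.09 for adipocytes, 0.15 for fibroblasts (9 of 10 higher) and 0.10 for endothelium (5 of 7 higher). The carcinoma markers were higher in 8 of 8 genes in that setting too, with a median of 0.35, and preirradiated tumor 2 was kept there. The part of any of these cell types in the lower macrophage values was not tested.

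Other immune markers were mostly lower. T and NK cell genes were lower in 10 of 10 (median -0.17), with Cd3g at -0.62, and the median was -0.07 without preirradiated tumor 1. B cell genes were lower in 6 of 6 (median -0.10), at 5.23 to 5.27 in preirradiated tumors. Nonirradiated tumor 4 stood alone at 5.72, the other nonirradiated tumors were at 5.20 to 5.27, and without tumor 4 the median was 0.0018. Dendritic cell genes were lower in 7 of 9 (median -0.04), at 5.88 to 6.001 against 5.94 to 6.05, and the median was 0.0021 without nonirradiated tumor 2. Neutrophil genes were lower in 10 of 13 (median -0.07), in 12 of 13 without preirradiated tumors 1 and 3 (median -0.27), and in 5 of 13 without nonirradiated tumor 3 (median 0.04). Of 5 monocyte markers 3 were lower (median -0.07), at 7.91 to 8.21 against 7.82 to 8.03, with medians from -0.12 to 0.06 when 1 tumor was left out. Plac8, a gene of monocytes and granulocytes, differed by -0.31, while Vcan, a proteoglycan that fibroblasts also make, differed by 0.68. The array signals carry no detection call, so a value above 0 does not show that a marker was expressed. The B cell levels lay near those of Marco. Whether such low signals exceed the background of the array was not tested.

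**Figure D5:**
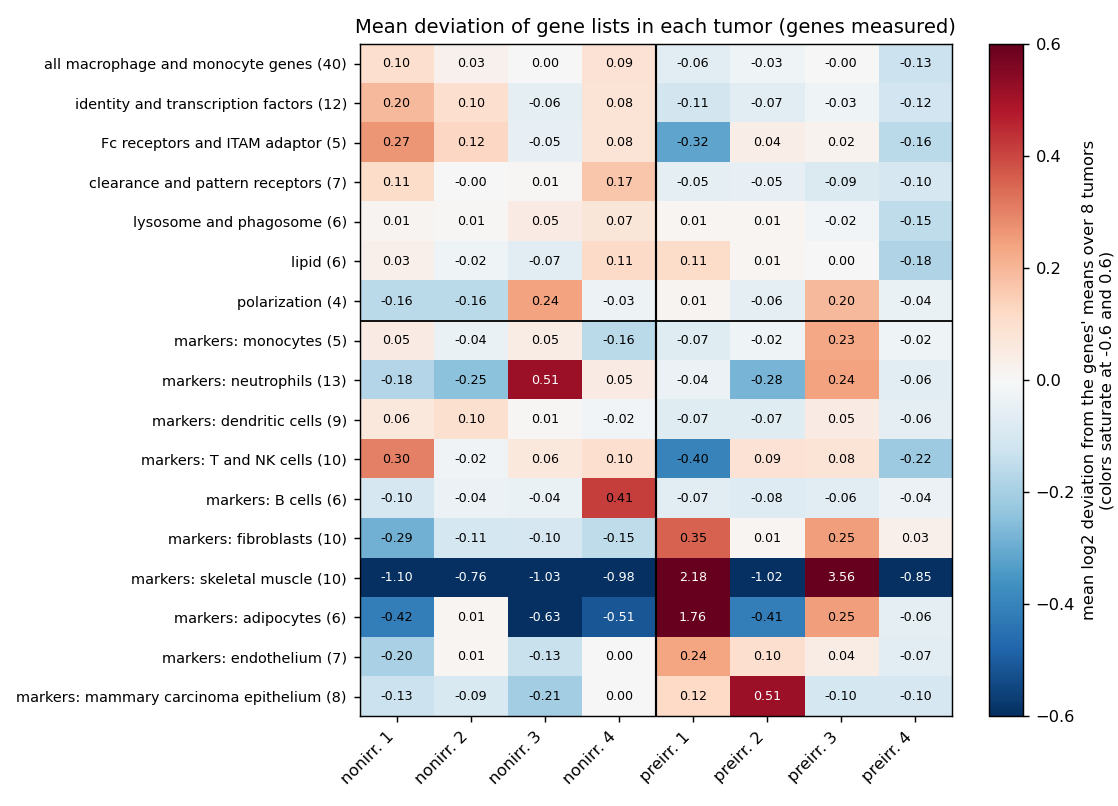
Mean log2 deviation of each gene list (rows, with the number of genes measured) from the genes' means over the 8 tumors (columns). All 40 genes together lie at 0.10 and 0.09 in nonirradiated tumors 1 and 4 and at -0.06 and -0.13 in preirradiated tumors 1 and 4, while muscle markers stand 2.18 and 3.56 above their mean in preirradiated tumors 1 and 3.

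Leaving out 1 tumor at a time showed how far these small differences rest on single tumors. Of the 33 lower genes 30 stayed lower without any 1 of the 8 tumors, but in 20 of the 33 some tumor moved the difference toward 0 by over 1.5 times. Clec4n, Spi1 and Tyrobp kept an unadjusted p under 0.05 by limma in all 8 such fits. They did not keep it without both preirradiated tumors 1 and 3, where the unadjusted p by limma was 0.11, 0.127 and 0.0859. The counts from leaving out 1 tumor were not made over all named genes, so no share stands beside them. The number of the 40 genes with an unadjusted p under 0.05 by limma fell from 9 to 3 without nonirradiated tumor 4. All 3 were lower. In that fit 4.9% of all probe sets were at that limit in either direction, and the share that was lower was not counted. The number fell to 5 without preirradiated tumor 4, where 7.64% of all probe sets were at that limit in either direction. With 4 tumors a group, the 95% intervals of 25 genes stayed within 0.4 of 0 on either side, and those of the other 15 reached further.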

How the data were processed

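Total RNA of 8 whole tumors was hybridised to 8 Affymetrix GeneChips (Mouse Gene 1.0 ST). Per the series' design text, the deposited values are log2 signals that the authors made by RMA with the affy package (Bioconductor 2.4). R 2.15.3 is named in the submitters' processing notes. RMA makes the arrays alike, so a change in total RNA cannot be seen. The sources used here do not name the chip description file.

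Of 34760 probe sets, 34738 had a mean of at least 4.0, the study's limit, and 21640 listed 1 symbol. All 8 arrays were fitted with limma 3.58.1 in R 4.3.3 (two-sided), adjusted over 34738 probe sets. The fit was run on simulated data with planted changes that were all larger than any difference among the genes described here. That run does not show how often changes as small as theirs would be found. The number of arrays limits the precision. The genes and lists were chosen with earlier results of these data known. Values in every tumor are given for genes with an unadjusted p under 0.05, with groups that do not overlap, the 6 largest differences and the 4 widest spreads within groups. Of each further list the smallest p-values are named, and of marker lists the largest differences. Alternatives were the expression limit, variance model, normalization, centring, array weights, replicate block, probe set choice and leaving out tumors. Promoters are from RefSeq, build GRCm38.p6.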

Additional observations from a re-analysis of the deposited data

Results flagged for a closer look

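Among 80 groups of 4 tumors (40 genes in 2 groups), 5 held a tumor whose gap to its nearest neighbour, as a share of the group's range, exceeded the 95% limit of Dixon's test. Chance gives about 1 in 20. Ctsb in nonirradiated tumor 4 was 12.14, with the others at 11.99 to 12.01 (gap ratio 0.905). Abca1 in the same tumor was 9.44, with the others at 9.18 to 9.22 (0.863). Fcgr1 in preirradiated tumor 1 was 9.23, below the others at 9.69 to 9.75 (0.885). Nos2 in preirradiated tumor 3 was 8.89, above the others at 8.19 to 8.31 (0.832). Spi1 in nonirradiated tumor 1 was 10.30, above the others at 10.12 to 10.15 (0.831), and without that tumor its difference was -0.13.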

How the results depend on the processing

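The count of probe sets and of genes among the 40 past the adjusted threshold was 0 in every setting run. Under the planned settings other than leaving out tumors, 33 or 34 genes were lower, with medians from -0.14 (arrays centred, where the median of all named genes moved to -0.04 and 73.7% of them were lower) to -0.08 (array weights). In them 6 (further quantile normalization, where Cd68, Cd14 and Maf no longer passed) to 13 (arrays centred) genes had an unadjusted p under 0.05, apart from the block. With arrays centred 8.42% of all probe sets were at that limit, against 5.8% in the main fit. Leaving out 1 tumor gave 31 to 35 lower genes and medians from -0.13 to -0.09. It gave 3 to 12 genes at an unadjusted p under 0.05 by limma, where 4.39% to 7.64% of all probe sets were at that limit. The study's filter was passed by 0 to 2 genes (2 without nonirradiated tumor 3, 2 without preirradiated tumor 2, 1 without nonirradiated tumor 2). That filter was passed by 1 gene with arrays centred (Clec7a) and by 1 without both preirradiated tumors 1 and 3 (Maf), a setting chosen after seeing the data. Gpnmb ran from -0.066 to 0.20 and Nos2 from -0.028 to 0.48. With the replicate block 4 genes had an unadjusted p under 0.05 (Cd14, Tyrobp, Clec4n and Arg1), as did 4.37% of all probe sets. The titles give only shared numbers. After each group's mean was subtracted from every probe set, same-numbered tumors correlated at -0.289 to -0.0752. The cause of the lower count was not tested. The limits are 4 tumors a group, small differences and array signals without a detection call.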
